A study of Mus musculus with 8 samples.

Results

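EGF family ligands were described at the RNA level in primary murine pancreatic ductal adenocarcinoma (PDAC) cells exposed to a MEK inhibitor. The 9 genes Areg, Ereg, Btc, Epgn, Tgfa, Hbegf, Egf, Nrg1 and Nrg4 were taken by symbol from the 34478 genes of the normalized count table, and all 9 were found. The data came from 4 cell lines, numbered #1, #3, #5 and #10, which had been grown out of tumors of genetically engineered mice. These mice carried Cre at the pancreatic gene Ptf1a (Ptf1a wt/Cre) and Trp53 alleles that Cre deletes (Trp53 loxP/loxP), and all libraries of both groups share the genotype of the model. Each line contributed 1 library treated with the solvent DMSO and 1 library treated for 48 h with trametinib at the IC50 of that line (MEKi), which gave 4 against 4 libraries of polyadenylated RNA. Trametinib is an allosteric inhibitor of the kinases MEK1 and MEK2, which activate ERK. The dose differed between lines by design, and the labels used here state no age of the mice. Except where the line is left out as a block, the p-values below weigh the mean change against how far the change differed between lines. That spread also holds the differing doses and the noise of single libraries.

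EGF family ligands are made as membrane-anchored precursors, from which proteases of the ADAM family release the soluble growth factor. Amphiregulin, epiregulin, betacellulin, epigen, TGF-alpha, HB-EGF and EGF bind the receptor EGFR, several of them also ERBB4, whereas neuregulins bind ERBB3 and ERBB4. Receptor dimers signal through MEK and ERK, several of the ligand genes are themselves known to be transcribed more when ERK is active, and EGFR signaling is known to take part in the formation of pancreatic tumors.

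The 8 libraries held between 30680091 and 36385719 normalized counts. Of 10 genes known to follow ERK activity, 9 were lower after MEKi, against 25.6% of all 15888 tested genes, and 0 were higher by limma, also at an unadjusted p under 0.05, with the largest fall for the transcription factor gene Etv4 (log2 fold change -5.92, SE 0.39, adjusted p = 0.00020). The tumor cell label was checked against marker genes. Keratin genes of ductal epithelium were abundant, with Krt18 between 45666 and 96354 normalized counts in DMSO, but 6 of 7 tested ductal markers fell with MEKi, against the same 25.6%, Sox9 the most (-1.49), and Epcam was listed at 0 in lines #1, #5 and #10. Of 5 acinar genes, 2 were tested, the enzyme gene Cela1 fell (-0.73) from between 24.8 and 247 normalized counts in DMSO to between 15.6 and 123 in MEKi, and Cpa1 was listed at 0 in all libraries. Summed fibroblast markers lay between 95.8 and 369 normalized counts in DMSO and between 440 and 1260 in MEKi, where Col1a1 alone rose among the 5 tested of 9 listed, Col1a2 reached at most 4.29 and Lum was listed at 0 in all libraries. Summed leukocyte markers lay between 1120 and 2668 in DMSO and between 1338 and 3806 in MEKi, most of it from Cd14 (907 to 3571 over the 8 libraries), and of the 5 tested Csf1r rose (2.83) while Ptprc did not exceed 17.2. Summed endothelial markers lay between 30.9 and 54.6 in DMSO and between 62.7 and 831 in MEKi, where Tek rose (3.77) among the 3 tested and Cdh5 did not exceed 17.5. These counts of called markers stand beside 27.3% higher and 25.6% lower among all tested genes. The part of the marker shifts in the ligand values was not tested. In such bulk libraries, fewer cells of a type and less RNA per cell cannot be told apart.

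MEKi changed most of the EGF family. Of the 9 genes, 8 had a mean of at least 10 normalized counts over the 8 libraries and were tested. Areg, Btc, Ereg, Tgfa and Hbegf were lower after MEKi, Nrg1 was higher, Egf and Nrg4 did not pass the test, and Epgn was too low to be tested. Thus 6 of 8 tested members were called at an adjusted p under 0.05 in either direction, against 53.0% of all 15888 tested genes. In the lower direction 5 of 8 were called, against 25.6% of all tested genes, and in the higher direction 1 of 8, against 27.3%. The median log2 fold change of the 8 tested members was -1.16, compared with 0.07 over all tested genes. The DMSO and MEKi values did not overlap for Areg, Ereg, Btc and Tgfa, which is 4 of 8 tested members, against 31.3% of all tested genes. Fold changes are on the scale of log2 of the normalized count plus 1, fitted by limma with each line as a block term, and p-values were adjusted over all tested genes by the Benjamini-Hochberg method.

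**Figure D1:**
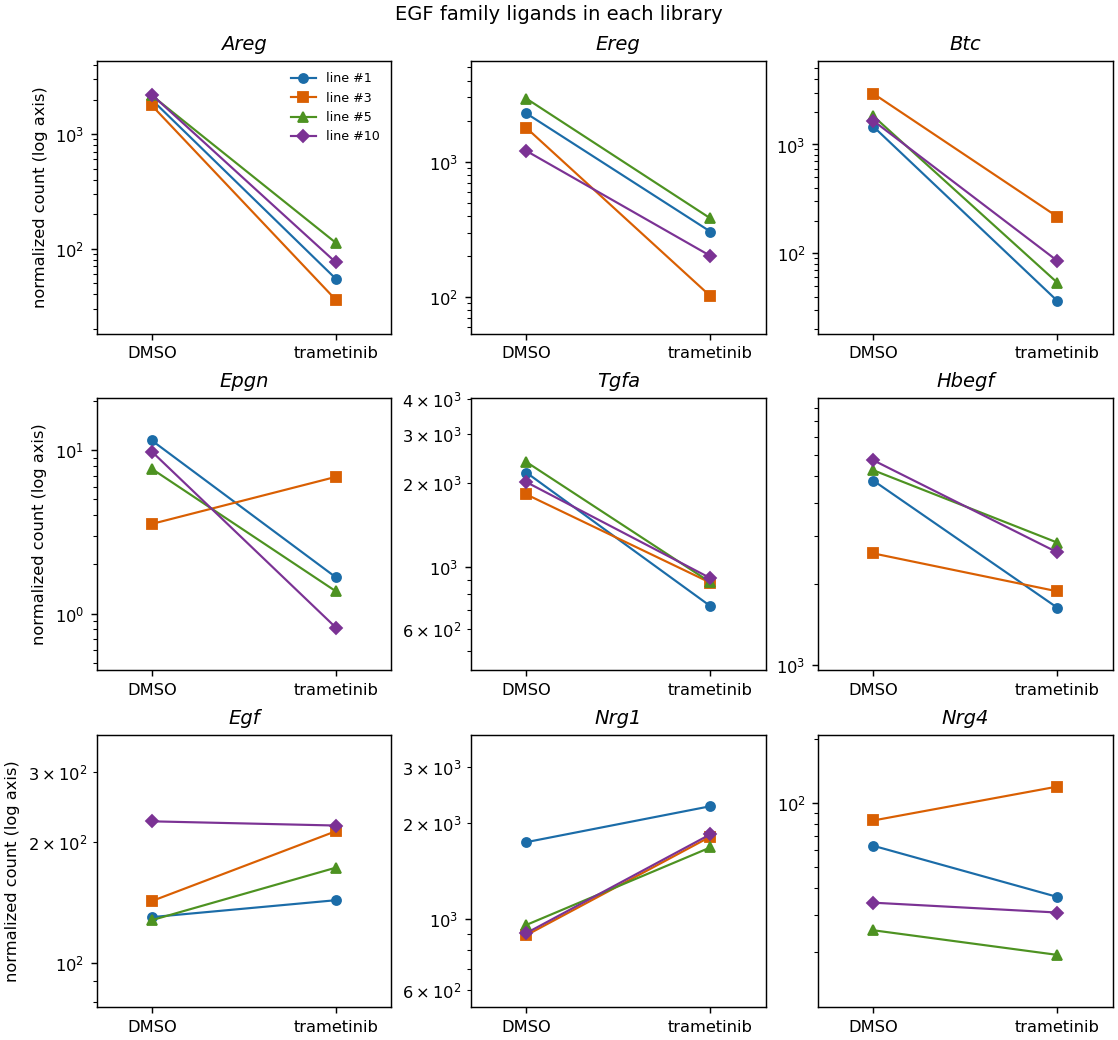
Normalized counts (log axis, a scale of its own in each panel) of the 9 ligand genes in DMSO and MEKi (trametinib) libraries, with 1 point per library and a line joining both libraries of a cell line. All 4 lines fall for Areg, Ereg, Btc, Tgfa and Hbegf and rise for Nrg1, and line #3 goes against the other lines for Epgn and Nrg4.

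Areg, Ereg, Btc and Epgn lie side by side on chromosome 5 (GRCm38). Epgn (chr5:91027464-91035215), Ereg (chr5:91074622-91093646) and Areg (chr5:91139599-91148432) are on the plus strand, and Btc (chr5:91357261-91402994) is on the minus strand, so that the cluster spans 375531 bases. Summed over the 4 genes, the level fell to between 5.56% and 7.93% of the DMSO library in the 4 lines, a mean log2 ratio of -3.87 ± 0.22 (SD, n = 4 lines).

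Areg encodes amphiregulin, a ligand of EGFR. Its normalized counts were 1994, 1776, 2171 and 2204 in the DMSO libraries of lines #1, #3, #5 and #10, and 54.5, 35.8, 112 and 75.9 in the MEKi libraries of the same lines. Every MEKi library was far below every DMSO library, and the DMSO level was alike in the 4 lines (2036 ± 196, SD, n = 4). Areg fell by 4.97 on the log2 scale (SE 0.22, adjusted p = 9.0e-05), which ranked 10 among all tested genes counted from the largest fall. MEKi left between 2.01% (line #3) and 5.18% (line #5) of the DMSO value.

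Btc encodes betacellulin, which binds EGFR and ERBB4. It had 1459, 2930, 1821 and 1650 normalized counts in DMSO and 36.5, 217, 53.6 and 85.1 in MEKi, in the order of lines #1, #3, #5 and #10. Line #3 was the highest in both groups, and the groups did not overlap. The fall was of -4.59 on the log2 scale (SE 0.26, adjusted p = 0.00014) and ranked 17. Btc was the member with the largest fall in lines #1 and #5, and Areg in lines #3 and #10.

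Ereg encodes epiregulin, a further ligand of EGFR and ERBB4. In DMSO it reached 2289, 1789, 2946 and 1208 normalized counts in lines #1, #3, #5 and #10, and in MEKi 306, 102, 383 and 202. Line #5 was the highest in both groups and the groups did not overlap. Line #3 retained 5.70% of its DMSO value, whereas the other lines retained between 13.0% and 16.7%. Its log2 fold change was -3.13 (SE 0.25, adjusted p = 0.00032), a smaller fall than that of Areg in each of the 4 lines. An antisense gene, Gm19610, shares 141 exonic bases with Ereg on the opposite strand and went from between 86.0 and 125 normalized counts in DMSO to between 26.2 and 53.3 in MEKi.

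Epgn, the gene of epigen, was barely detected. It had 11.5, 3.54, 7.70 and 9.81 normalized counts in the DMSO libraries of lines #1, #3, #5 and #10, and 1.67, 6.88, 1.37 and 0.821 in MEKi. It was above the value that 3 reads would give in all 4 DMSO libraries, but in the MEKi group only in line #3, the line in which it was higher with MEKi. The mean log2 difference was -1.47 ± 1.54 (SD, n = 4 lines), lower in 3 of 4 lines, and an exact two-sided sign-flip permutation test gave p = 0.25, where the smallest p possible with 4 lines is 0.125. Without line #3, the mean was -2.22 ± 0.35 (SD, n = 3 lines). With no filter, limma gave the same -1.47 (adjusted p = 0.15), which did not pass the test. The depth, the number of lines and the opposite direction of line #3 do not allow a firmer statement on Epgn.

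**Figure D2:**
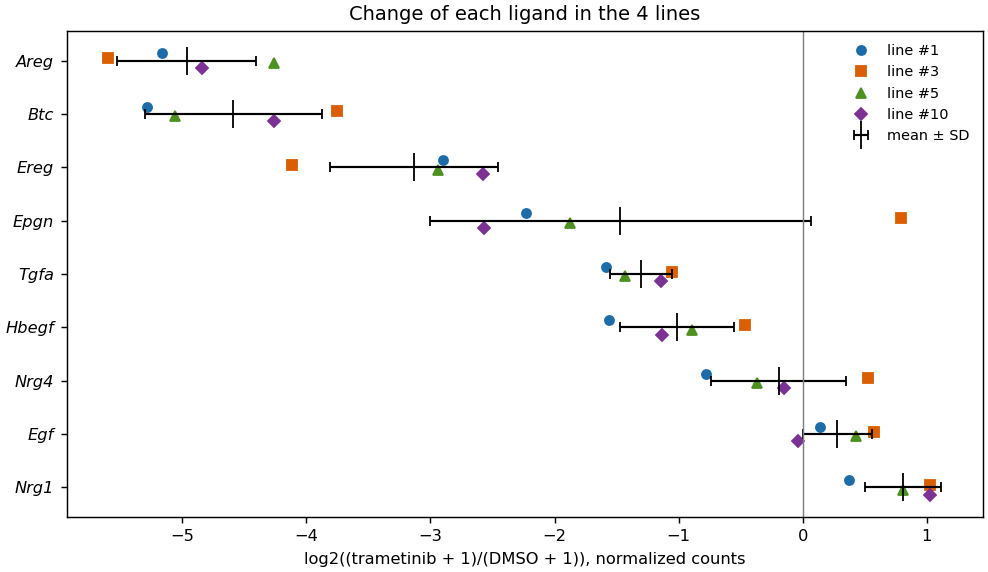
Log2 ratio of MEKi (trametinib) to DMSO, with 1 added to each normalized count, for each ligand gene, with 1 point per cell line and the mean ± SD over 4 lines. Areg and Btc lie near -5 and -4.6, Ereg near -3, Tgfa and Hbegf near -1, and Nrg1 is the 1 member above 0 in all 4 lines.

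Promoter sequence was matched by symbol in RefSeq (GRCm38.p6) for 6 of the 9 genes. The windows, from 250 bases before to 50 bases after the start site, were searched on both strands for the cAMP response element (TGACGTCA), the AP-1 site (TGANTCA) and the CArG box of serum response factor. These elements are known binding sites of factors downstream of growth factor signaling. A single match was found, the cAMP response element TGACGTCA in the Areg promoter from position -61 to -54, a sequence present in 1.79% of 32851 promoters, where 7.81% hold the AP-1 site and 1.63% the CArG box. Absence of these letters from a window says nothing about the factors. The 250 bases before the start site are shown for the 3 genes with an entry that fell, 5′ to 3′ on the strand of the gene, with the cAMP response element in capitals, at chr5:91139349-91139598 (plus) for Areg, chr5:91402995-91403244 (minus) for Btc and chr6:86194972-86195221 (plus) for Tgfa.
Areg: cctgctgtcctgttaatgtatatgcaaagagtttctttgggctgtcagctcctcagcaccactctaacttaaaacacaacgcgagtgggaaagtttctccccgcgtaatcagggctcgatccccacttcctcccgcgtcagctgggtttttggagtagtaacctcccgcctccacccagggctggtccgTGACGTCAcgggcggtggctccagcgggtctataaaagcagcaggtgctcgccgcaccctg
Btc: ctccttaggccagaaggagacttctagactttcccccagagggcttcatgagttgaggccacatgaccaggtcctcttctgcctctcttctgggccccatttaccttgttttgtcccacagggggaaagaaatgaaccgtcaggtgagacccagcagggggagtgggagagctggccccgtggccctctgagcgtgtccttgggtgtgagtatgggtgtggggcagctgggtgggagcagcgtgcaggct
Tgfa: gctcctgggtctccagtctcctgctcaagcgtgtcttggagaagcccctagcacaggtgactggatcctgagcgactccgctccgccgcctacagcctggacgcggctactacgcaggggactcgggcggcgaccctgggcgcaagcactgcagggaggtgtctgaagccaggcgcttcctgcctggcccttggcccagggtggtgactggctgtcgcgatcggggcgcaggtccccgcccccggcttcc

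Tgfa encodes TGF-alpha, an EGFR ligand with a long history in pancreatic metaplasia, and lies on chromosome 6 (chr6:86195223-86275719, plus strand, GRCm38). It was at 2181, 1821, 2380 and 2016 normalized counts in the DMSO libraries of lines #1, #3, #5 and #10, and at 724, 879, 882 and 912 in MEKi. The groups did not overlap and both were narrow, at 2099 ± 238 and 849 ± 84.6 (SD, n = 4 each). Its change was -1.30 on the log2 scale (SE 0.12, adjusted p = 0.00043), with between 33.2% and 48.3% of the DMSO level retained.

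Hbegf, on chromosome 18, encodes HB-EGF, which binds EGFR and ERBB4. Its normalized counts were 4824, 2593, 5271 and 5739 in DMSO and 1632, 1877, 2843 and 2616 in MEKi, in the order of lines #1, #3, #5 and #10. Each line fell, but the groups overlapped, since DMSO line #3 was below MEKi lines #5 and #10. The log2 fold change was -1.01 (SE 0.17, adjusted p = 0.0030), the smallest of the 5 falls. Line #3 retained 72.4% of its DMSO value and line #1 33.8%.

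Egf, the founding member of the family, lies on chromosome 3 (chr3:129677565-129755316, minus strand, GRCm38). It was low throughout, at 130, 143, 128 and 226 normalized counts in DMSO and 144, 213, 173 and 220 in MEKi, in the order of lines #1, #3, #5 and #10. Line #10 was the highest in both groups and was the 1 line without a rise. The log2 fold change of 0.28 (SE 0.17, adjusted p = 0.22, higher in 3 of 4 lines) did not pass the test. Its sign depended on the scaling, as quantile normalization gave -0.08 (adjusted p = 0.72). These values do not show that Egf was the same in both groups.

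Of the 2 neuregulin genes among the 9, Nrg1 rose and Nrg4 did not pass the test. Nrg1 encodes neuregulin 1, a ligand of ERBB3 and ERBB4, at chr8:31814551-32884029 (minus strand, GRCm38). In DMSO it had 1744, 892, 961 and 906 normalized counts in lines #1, #3, #5 and #10, and in MEKi 2258, 1813, 1679 and 1845. All 4 lines rose, and the groups overlapped through line #1 alone, whose DMSO library lay above the MEKi library of line #5. The log2 fold change was 0.81 (SE 0.13, adjusted p = 0.0026), and 0.95 (adjusted p = 0.0048) without line #1. Nrg1 shares 482 exonic bases with Gm26578 on the opposite strand, a gene that went from between 4.80 and 20.2 normalized counts in DMSO to between 28.9 and 41.2 in MEKi.

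Nrg4 encodes neuregulin 4, a ligand of ERBB4, at chr9:55220222-55326844 (minus strand, GRCm38). It was at 63.1, 82.9, 25.4 and 34.2 normalized counts in DMSO and 36.4, 119, 19.5 and 30.7 in MEKi, in the order of lines #1, #3, #5 and #10. Line #3 was the highest in both groups and the 1 line that was higher with MEKi. The log2 fold change was -0.19 (SE 0.29, adjusted p = 0.59), lower in 3 of 4 lines. It was -0.43 (adjusted p = 0.27) without line #3, 0.0023 (adjusted p = 0.996) without line #1, and -0.61 (adjusted p = 0.11) with quantile normalization, so neither its sign nor its size was stable. Its exons share 1467 bases with Fbxo22, which had between 1310 and 2030 normalized counts. The kit kept strand, but the strand setting of the counting was not given in the sources used here, so that reads from such pairs may have been shared.

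The summed output of the 9 genes fell in each line. It was 14696, 12030, 15711 and 13992 normalized counts in the DMSO libraries of lines #1, #3, #5 and #10, and 5193, 5263, 6146 and 5988 in MEKi. The groups did not overlap, and the mean log2 ratio was -1.32 ± 0.14 (SD, n = 4 lines). Summed per kilobase of merged exons, the mean log2 ratio was larger in size, at -2.10 ± 0.15. The 7 EGFR ligand genes together changed by -1.82 ± 0.22, with between 22.5% and 31.5% of the DMSO sum left, whereas the 2 neuregulin genes among the 9, Nrg1 and Nrg4, changed by 0.78 ± 0.31 and reached between 127% and 200% of DMSO. Per kilobase of merged exons, the summed EGFR ligand level exceeded the summed neuregulin level 21.6, 33.8, 45.1 and 42.9 times in the DMSO libraries of lines #1, #3, #5 and #10, and 2.63, 3.33, 5.67 and 4.54 times in MEKi. In normalized counts not divided by length, the same ratios were 7.13, 11.3, 14.9 and 13.9 in DMSO and 1.26, 1.72, 2.62 and 2.19 in MEKi. Per kilobase of the longest coding transcript, the ratios were 14.8, 21.4, 31.0 and 30.2 in DMSO and 2.32, 2.93, 5.10 and 4.18 in MEKi. On each of these scales the ratio was lower with MEKi in 4 of 4 lines. Nrg2, which fell, is not one of the 9 genes and was left out of these sums and ratios. No p-value is given for sums over members chosen with earlier results known.

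To compare the ligands with each other, normalized counts were divided by the merged exon length in kilobases. On this scale, Areg had the highest DMSO level at 1676 ± 162 per kb and made up 41.7% ± 1.98 of the summed level (SD, n = 4). Hbegf followed at 953 ± 288, Ereg at 499 ± 179, Btc at 435 ± 146 and Tgfa at 323 ± 36.7 per kb. Neighbors in this order from Hbegf to Tgfa overlapped in their ranges, whereas Areg was separate above and Nrg1 (109 ± 39.9) separate below. Egf (13.9 ± 4.12), Nrg4 (8.46 ± 4.36) and Epgn (4.50 ± 1.90) came last, where Nrg4 overlapped both Egf and Epgn, while Egf and Epgn did not overlap each other. With the length of the longest coding transcript, Hbegf (1940 ± 587 per kb) stood above Areg in DMSO with overlapping ranges, so the order of these 2 genes depended on the length used.

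After MEKi, the order by merged exon length changed. Hbegf was first at 464 ± 120 per kb, followed by Nrg1 at 183 ± 24.2 and Tgfa at 131 ± 13.0, and the ranges of these 3 genes did not overlap. Ereg (60.1 ± 29.7) and Areg (57.3 ± 27.1) overlapped each other, and Areg overlapped Btc (21.7 ± 18.1). From Btc to Egf (16.6 ± 3.19), Nrg4 (8.48 ± 7.54) and Epgn (1.48 ± 1.56), each neighbor overlapped the next. Areg made up 5.89% ± 2.02 of the summed level, Hbegf rose from 23.4% ± 5.71 to 48.5% ± 5.83, both as mean ± SD with n = 4. Nrg1 made up between 2.07% and 4.16% in DMSO and between 14.7% and 26.8% in MEKi. The share of Areg did not overlap between groups, at 39.9% to 44.4% in DMSO and 3.49% to 8.40% in MEKi. With the length of the longest coding transcript, Areg made up 30.4% ± 1.23 in DMSO and 3.28% ± 1.17 in MEKi. On that length Hbegf was first by its mean in both groups, at 34.5% ± 7.77 in DMSO and 54.8% ± 6.72 in MEKi.

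**Figure D3:**
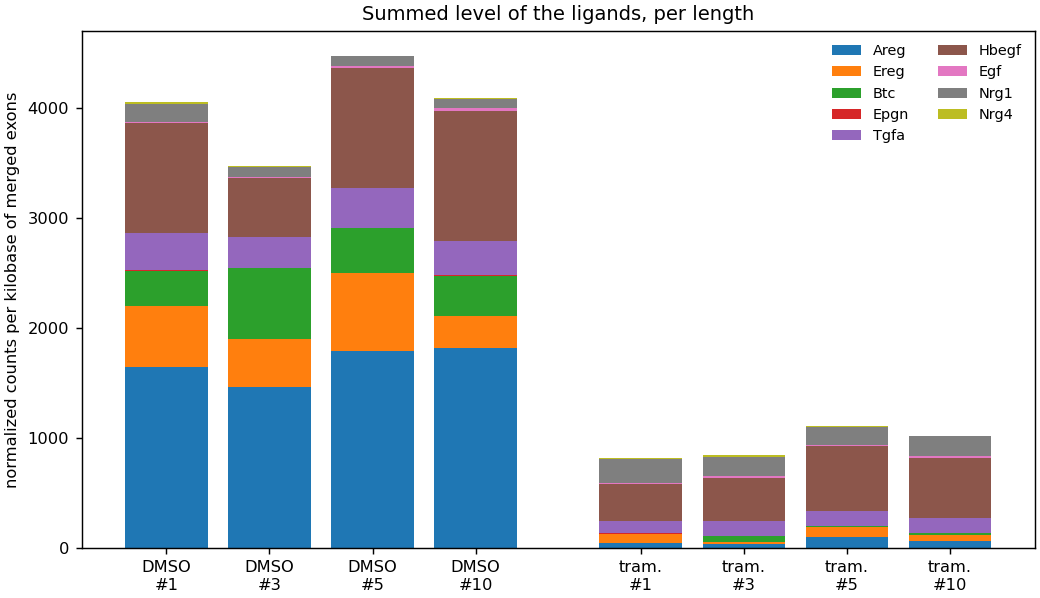
Stacked normalized counts per kilobase of merged exons for the 9 ligand genes in each library, as deposited and with no error bars because each bar is 1 library. DMSO bars reach from 3475 to 4473 with Areg as the largest block, and MEKi (tram.) bars from 814 to 1103 with Hbegf as the largest block.

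For the 6 called members all 4 lines moved the same way, but by different amounts, and the SD of the line log2 ratios ranged from 0.25 for Tgfa to 0.71 for Btc. Line #3 had the largest fall of Areg (-5.60) and Ereg (-4.12) and the smallest of Btc (-3.75), Tgfa (-1.05) and Hbegf (-0.47) among the 4 lines. Line #1 had the largest fall of Btc (-5.28), Tgfa (-1.59) and Hbegf (-1.56) and the smallest rise of Nrg1 (0.37). Differences between lines could not be tested, because each line had 1 library per treatment.

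Of the 4 receptor genes, Egfr rose, Erbb2 and Erbb3 did not pass the test and Erbb4 was too low to be tested. Thus 1 of 3 tested receptors was higher, near the 27.3% of all tested genes. Egfr, which encodes the shared receptor of the EGFR ligands, had 758, 597, 2076 and 1121 normalized counts in the DMSO libraries of lines #1, #3, #5 and #10 and 1559, 1052, 4672 and 2683 in MEKi. It rose in each line while the groups overlapped, since lines differed in their starting level, with line #5 the highest in both groups. The log2 fold change was 1.07 (SE 0.10, adjusted p = 0.00053), and the same change did not pass the test without the line as a block (adjusted p = 0.15).

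Erbb2, the receptor without a ligand of its own, was at 2847, 5805, 3038 and 2946 normalized counts in DMSO and at 3262, 6551, 3070 and 3412 in MEKi, with line #3 the highest in both groups. Its log2 fold change of 0.15 (adjusted p = 0.16) did not pass the test, although it was above 0 in 4 of 4 lines and passed with libraries rescaled to equal totals (0.28, adjusted p = 0.023). Erbb3, the neuregulin receptor with a weak kinase, had 602, 1916, 550 and 286 normalized counts in DMSO and 461, 1066, 399 and 372 in MEKi. Its change of -0.33 (adjusted p = 0.20) did not pass the test but did without line #10 (-0.56, adjusted p = 0.032), the line in which it was higher with MEKi. Erbb4, which binds neuregulin 4, did not exceed 8.13 normalized counts in any library.

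Of the remaining neuregulin genes, Nrg2 fell from 191, 171, 120 and 294 normalized counts in DMSO to 86.0, 88.0, 40.4 and 150 in MEKi, in the order of lines #1, #3, #5 and #10. Its groups overlapped and the log2 fold change was -1.15 (SE 0.19, adjusted p = 0.0026). Without the line as a block, Nrg2 did not pass the test, although its unadjusted p was under 0.05. Nrg3 was listed at 0 or up to 2.81. Thus Nrg1 and Nrg2, which encode ligands of the same receptors, moved in opposite directions.

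Genes that act on the ligands before and after release moved both ways. Of 12 tested genes of 14 listed for ligand release and maturation, 6 were higher and 3 lower, against 27.3% higher and 25.6% lower among all tested genes, and the median log2 fold change was 0.30. The share that fell was near that of all tested genes. Adam10, the protease known to release EGF and betacellulin, rose the most, from between 3823 and 5645 normalized counts to between 6829 and 15183 (0.88, SE 0.18, adjusted p = 0.0070). The highest MEKi value was that of line #3, where the log2 ratio was 1.59, against 0.50 to 0.84 in the other lines. Adam9, a further membrane protease, fell the most, from between 10848 and 16104 to between 6996 and 8956 (-0.78, SE 0.12, adjusted p = 0.0023). Adam17, singled out after its values were seen because it is the known sheddase of amphiregulin, TGF-alpha and HB-EGF, had a log2 fold change of -0.04 (SE 0.09, adjusted p = 0.70). The further called genes of the list moved the same way in all 4 lines. Rhbdf2 (0.79), Frmd8 (0.78), Rhbdl2 (0.67), Adam15 (0.30) and Rhbdf1 (0.30) rose, and Cnih1 (-0.60) and Bace1 (-0.39) fell.

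Of 11 tested receptor inhibitors, 4 were higher and 2 lower, and both shares were near those of all tested genes (27.3% higher and 25.6% lower). Errfi1, whose product binds and inhibits the EGFR kinase, fell from 13901, 5919, 7861 and 4475 normalized counts in DMSO lines #1, #3, #5 and #10 to 3497, 2597, 3138 and 1610 in MEKi (-1.49, SE 0.14, adjusted p = 0.00047). Its groups did not overlap. Cblb, a ubiquitin ligase that targets activated EGFR, rose in 4 of 4 lines (0.84, SE 0.16, adjusted p = 0.0043). Of 6 adaptor genes, 2 rose, also near the 27.3% of all tested genes, and 0 fell by limma, also at an unadjusted p under 0.05, with the largest rise for the docking protein gene Gab1, from between 132 and 354 normalized counts to between 736 and 1247 (1.99, SE 0.16, adjusted p = 0.00032). These counts shifted with the settings. The number of rising release genes was 3 without line #1 or without line #10, where 6 had an unadjusted p under 0.05. It was 2 without the line as a block, where 3 had an unadjusted p under 0.05. The number of rising inhibitors was 2 without line #10 and 0 without the block, each with 3 at an unadjusted p under 0.05. Of all tested genes, 3383 were higher without line #1, 3445 without line #10 and 2205 without the block.

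**Figure D4:**
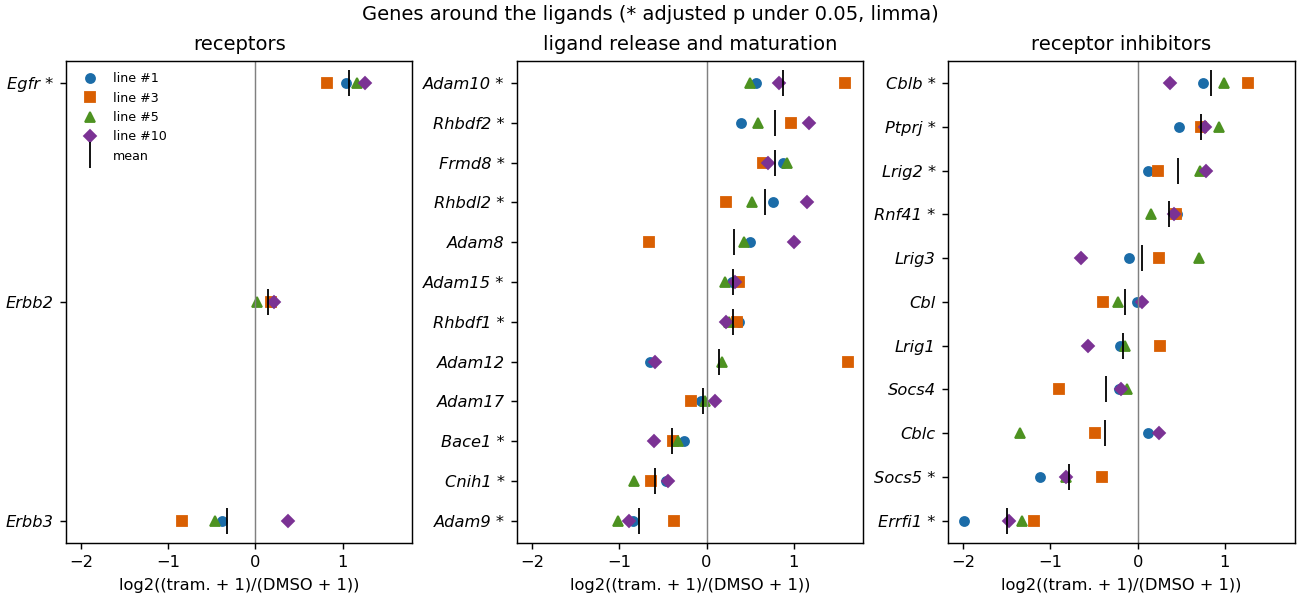
Log2 ratio of MEKi (trametinib) to DMSO, with 1 added to each normalized count, in each of the 4 lines (points) and their mean (vertical bar) for tested receptors, release genes and receptor inhibitors, where an asterisk marks an adjusted p under 0.05 by limma. Egfr lies between 0.82 and 1.26 in all lines, and Errfi1 between -1.99 and -1.19.

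The genes around the chromosome 5 cluster were then examined, as the 3 tested ligands there had the largest falls of the family. Within 500 kb on either side lay 12 other protein-coding genes, of which 10 were tested. A single one fell, Rassf6 (-1.31, SE 0.22, adjusted p = 0.0030), 3 rose, namely Afm (1.99), Cxcl15 (2.75) and Parm1 (0.98), and 6 did not pass the test, against 25.6% lower and 27.3% higher among all tested genes. Mthfd2l, the gene next to Epgn, had between 466 and 763 normalized counts in DMSO and between 384 and 637 in MEKi (-0.20, SE 0.11, adjusted p = 0.15), and Parm1, the gene on the side of Btc, rose in 4 of 4 lines. The difference between the ligands and their neighbors was not tested.

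**Figure D5:**
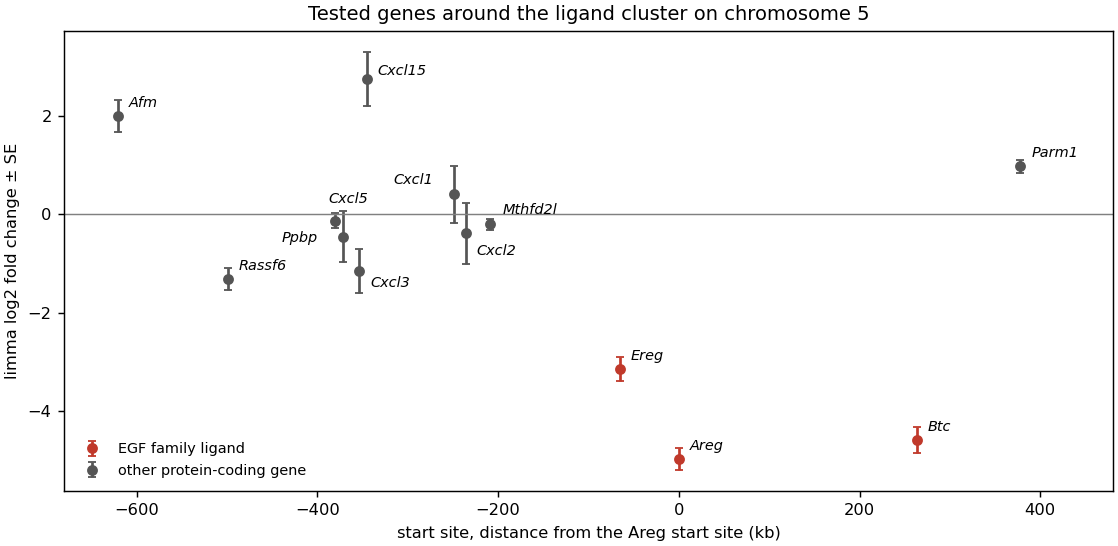
Fitted log2 fold change ± SE of tested protein-coding genes within 500 kb of the chromosome 5 ligand cluster against the distance of their start site from that of Areg in kilobases. Ereg, Areg and Btc lie between -3.1 and -5.0, and the other genes lie between -1.31 and 2.75.

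The profile of each tested ligand over the 8 libraries was compared with that of all tested genes, by the Euclidean distance between log2 values centered on the mean of each gene. The gene nearest to Areg was Egr1, an immediate early transcription factor gene, at a distance of 0.78, followed by Acan (1.47) and Aqp8 (2.28). For Btc the nearest were Gcnt3 (1.54), Alpi (1.71) and CT009711.2 (1.72), and for Ereg they were Il5ra (1.21), Stac (1.22) and Slc16a6 (1.26). The nearest other ligand to Areg was Ereg, at 2.90 and position 19 among all genes. In turn, Areg was the nearest other ligand to Btc, at position 19, and to Ereg, at position 446. The 3 tested cluster genes were thus not each other's closest matches. The values were not scaled, so the size of a change enters the distance.

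Among the remaining tested ligands, Tgfa was nearest to Gm24494 (0.35), Kdm8 (0.37) and Gm9480 (0.41), and Hbegf to Pim3 (0.60), Rdm1 (0.64) and Prr5 (0.66). Nrg1 was nearest to Myl12a (0.38), Maged1 (0.38) and Prkcd (0.41). Egf was nearest to Slx4ip (0.27), Ufsp1 (0.31) and Taf8 (0.32), and Nrg4 to Gm15186 (0.85), Clcn2 (0.98) and Ccdc24 (0.99). These likenesses are descriptions over 8 libraries that share treatment and line.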

How the data were processed

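RNA of 4 cell lines, each as 1 DMSO and 1 MEKi library, was prepared with a stranded mRNA kit. The submitters' processing notes name CASAVA 2.17, Salmon 0.12, DESeq2 1.18 and build mm10. The authors deposited 1 table of normalized counts, here treated as a signal and not as reads, since only 40.0% to 62.5% of low values per library lay at whole multiples of 1 read (tolerance 0.02 of a step). Counting error is therefore approximate. All 8 columns were used. Genes with a mean of at least 10 were tested with limma 3.58.1 (R 4.3.3) on log2 of the value plus 1, with the cell line as block, a mean-variance trend and Benjamini-Hochberg adjustment over 15888 genes (threshold 0.05). The code was tested on simulated data. The pairing comes from the labels, as both libraries of a number are 1 line. Their deviations from the group means correlated at 0.63 to 0.72. Members and gene lists were chosen with earlier results of these data known. Named genes are the 9 members, the receptors, in each list the called gene with the largest rise and the largest fall in all 4 lines, and the 3 genes nearest to each member. Adam17, Sos1, Nrg3, Krt18, Epcam, Cpa1, Col1a2, Lum, Cd14, Ptprc and Cdh5 fall outside that rule. So do the called release genes other than Adam10 and Adam9, and the genes that overlap or neighbor a ligand. All of these were named with their values seen. Lengths and positions come from GENCODE on GRCm38 and promoters from RefSeq (Python 3.11.15). Other pseudocounts (0.1 and 5), filters, scalings, fits and leaving out each line were tried. Protein sequences were not used here, and 1 element of the genotype is not reported here.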

Additional observations from a re-analysis of the deposited data

Results flagged for a closer look

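In 39 groups of 4 values (the DMSO values, the MEKi values and the line log2 ratios of the 9 ligands and 4 receptors), 8 had a highest library that stood far apart from the other 3 by Dixon's criterion. About 1.95 would be expected by chance for normally distributed values. All 8 were groups of normalized counts taken without a log, for which that number need not hold.

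In 5 of these groups, the library apart was that of line #3. In MEKi, Epgn was at 6.88 normalized counts in line #3, against 0.821 to 1.67 in the others, and Nrg4 was at 119, against 19.5 to 36.4. Erbb2 was at 5805 in DMSO line #3, against 2847 to 3038, and at 6551 in MEKi line #3, against 3070 to 3412. Erbb3 was at 1066 in MEKi line #3, against 372 to 461.

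In the remaining groups, Egf was at 226 in DMSO line #10, against 128 to 143. Nrg1 was at 1744 in DMSO line #1, against 892 to 961. Erbb4 was at 8.13 in DMSO line #5, against 0 to 1.09, all of which are low values.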

How the results depend on the processing

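The 6 called ligands, 5 lower and 1 higher, kept their direction and side of the threshold in all 14 alternatives, with the highest adjusted p for Hbegf (0.026) and Nrg1 (0.029). Egf and Nrg4 were not called in any, and each changed sign in 1, Egf to -0.08 with quantile normalization and Nrg4 to 0.0023 without line #1. Epgn ranged from -2.22 to -0.79. Without the line as a replicate block, which ignores the pairing, 0 other ERBB ligands were lower (1 at an unadjusted p under 0.05). In that fit 0 receptors (0 unadjusted), 2 release genes (3 unadjusted) and 0 inhibitors (3 unadjusted) were higher. Of all tested genes, 2205 were higher and 2347 lower in it, where the blocked fit gave 4341 and 4075. With equal totals and with quantile normalization, 2 receptors were higher, where 5333 and 3779 of all tested genes were higher. With centring on the median, 1 adaptor, Sos1, was lower, where 4492 of all tested genes were lower. The median of all tested genes was 0.20 with equal totals and -0.03 with quantile normalization. The summed level changed by -2.10 per kilobase of merged exons and by -1.70 per kilobase of the longest coding transcript, an alternative chosen after seeing the data. Leaving out 1 line gave 0 to 1 receptors lower (1 without line #10, where 3302 of all tested genes were lower). It gave 3 to 7 release genes higher, beside 3383 to 4195 of all tested genes. The count of 3 came without line #1 and without line #10, where 6 had an unadjusted p under 0.05. It also gave 2 to 4 inhibitors higher (2 without line #10, where 3 had an unadjusted p under 0.05). The cause of these shifts was not tested. Depth limits the statements on Epgn and Erbb4, and 1 library per line and treatment allows no test within a line.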
